A study of Mus musculus with 6 samples.

Results

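The miRNAs described here are the products of the miR-199 and miR-214 genes, measured in serum exosomes of mice. They were chosen by name, as the 5 rows mmu-miR-199a-3p, mmu-miR-199b-3p, mmu-miR-199a-5p, mmu-miR-214-3p and mmu-miR-214-5p among the 1982 rows of the count table. Of these, mmu-miR-199a-3p and mmu-miR-199b-3p had identical counts in every mouse and were counted once, which left 4 distinct rows. Exosomes, vesicles shed by cells into body fluids, were taken from 6 male C57BL/6 mice aged 3 months, with 1 small RNA library per mouse. In the Acu/LFES group (needle acupuncture combined with a low-frequency current, ACU-LFES in the labels), 3 mice were stimulated through hindlimb needles once for 30 min at 20 Hz and 1 mA. In the sham group, 3 mice had needles wired to the device near the same points, but the current stayed off. The labels name no transgene, drug or disease model for either group. The interval between stimulation and blood collection for these 6 mice is not given in the sources used here.

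miRNAs are cut as pairs from an RNA hairpin, a 5p arm and a 3p arm, of which one is usually kept in much larger amount. Each arm recognises mRNAs mainly through its seed, the bases from 2 to 8. The miR-199 and miR-214 genes lie on the opposite strand within introns of the dynamin genes, and they are best known from mesenchymal cells, such as fibroblasts, osteoblast precursors, hepatic stellate cells and smooth muscle. miR-199a-2 and miR-214 are cut from the same long transcript, Dnm3os, which the transcription factor Twist1 is known to drive. miR-199a-3p is known to repress Mtor and Met, miR-199a-5p to repress Cav1 and Hif1a, and miR-214-3p to repress Ezh2. The sequencing was done to ask which serum exosome miRNAs differ after stimulation of hindlimb muscle.

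The mature sequences are given from RefSeq (GRCm38.p6) because they decide which rows can be told apart. All 5 members had an entry. Seeds are in capitals, and all sequences read 5′ to 3′.
mmu-miR-199a-3p: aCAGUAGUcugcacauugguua
mmu-miR-199b-3p: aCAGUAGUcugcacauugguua
mmu-miR-199a-5p: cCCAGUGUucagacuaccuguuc
mmu-miR-214-3p: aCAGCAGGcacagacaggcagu
mmu-miR-214-5p: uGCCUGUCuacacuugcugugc

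miR-199a-3p and miR-199b-3p have the same 22 bases, so a read could belong to either row. Over their first 8 bases miR-199a-3p and miR-214-3p differ by U5C and U8G, counted from 1 at the 5′ end with the miR-199a-3p base first, and their seeds are different. Among mature mouse miRNAs in the RefSeq table, miR-761 has the same seed as miR-214-3p, and no other entry of that table outside the members shares a seed with them. miR-199b-5p has no entry there. miR-761 had 3 counts in sham mouse 1 and 0 counts in each of the other mice, so nearly all counts with this seed were those of miR-214-3p.

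The 4 hairpins are shown because the same 3p arm stands in 3 of them, at different places in the genome. Capitals mark the mature arms that the RefSeq table lists for each gene.
Mir199a-1: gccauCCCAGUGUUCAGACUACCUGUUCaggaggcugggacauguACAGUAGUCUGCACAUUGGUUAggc
Mir199a-2: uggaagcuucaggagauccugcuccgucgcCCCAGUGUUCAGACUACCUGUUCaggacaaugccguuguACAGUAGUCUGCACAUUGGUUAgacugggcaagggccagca
Mir199b: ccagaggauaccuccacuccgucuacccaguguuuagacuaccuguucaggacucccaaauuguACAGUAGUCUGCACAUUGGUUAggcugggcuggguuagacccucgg
Mir214: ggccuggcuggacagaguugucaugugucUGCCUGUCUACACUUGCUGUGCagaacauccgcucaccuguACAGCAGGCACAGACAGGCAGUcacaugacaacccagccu

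In GRCm38, Mir199a-1 lies at chr9:21496495-21496564 on the minus strand, in an intron of Dnm2 on the other strand. Mir199a-2 lies at chr1:162217814-162217923 and Mir214 at chr1:162223368-162223477, both on the plus strand. The GENCODE M21 annotation puts both in an exon of the antisense RNA Dnm3os and, on the other strand, in an intron of Dnm3, with 5444 bases between them. Mir199b lies at chr2:32318460-32318569 on the plus strand, in an intron of Dnm1 on the other strand. The miR-199a-3p count therefore pools 3 genes on 3 chromosomes, the miR-199a-5p sequence stands in 2 genes, and the miR-214 counts come from 1 gene. The best match of miR-199a-5p in the Mir199b hairpin differs by C10U alone, counted from the 5′ end of miR-199a-5p, so the seed of miR-199a-5p also stands in that hairpin, and the number of mismatches allowed in the counting is not given in the sources used here.

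miR-199a-3p was by far the most counted arm. Its raw counts were 1717, 463 and 320 in sham mice 1, 2 and 3 and 4967, 738 and 3600 in Acu/LFES mice 4, 5 and 6. The libraries differed in depth, from 391708 to 1504137 counts, so levels are given as CPM, counts divided by a library size that edgeR's TMM factor has corrected for the few very abundant miRNAs and scaled to a common depth. On that scale miR-199a-3p was 2480, 1082 and 1060 CPM in sham animals and 2979, 1538 and 3292 CPM in Acu/LFES animals. Sham mouse 1 was above Acu/LFES mouse 5, so the groups overlapped. By count it held place 25 to 46 among miRNAs with distinct counts in a mouse, while miR-199a-5p held place 146 to 183 and miR-214-3p place 112 to 197.

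The mean of miR-199a-3p was 1541 ± 814 CPM in sham animals and 2603 ± 936 CPM in Acu/LFES animals (n = 3 per group, SD). The log2 fold change of Acu/LFES over sham was 0.75 with a standard error of 0.39, or 1.69-fold (adjusted p = 0.568 by the quasi-likelihood test of edgeR, Benjamini-Hochberg adjusted over all miRNAs tested, unadjusted p = 0.0837). The difference in means was of the size of the spread between mice. In a serum preparation, more exosomes from a cell type and more miRNA in each exosome cannot be told apart. Sham mouse 1 weighed most on the value. Without it the log2 fold change was 1.32, and every remaining sham mouse was below every Acu/LFES mouse, but the adjusted p was still 0.220 in the same edgeR test.

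**Figure D1:**
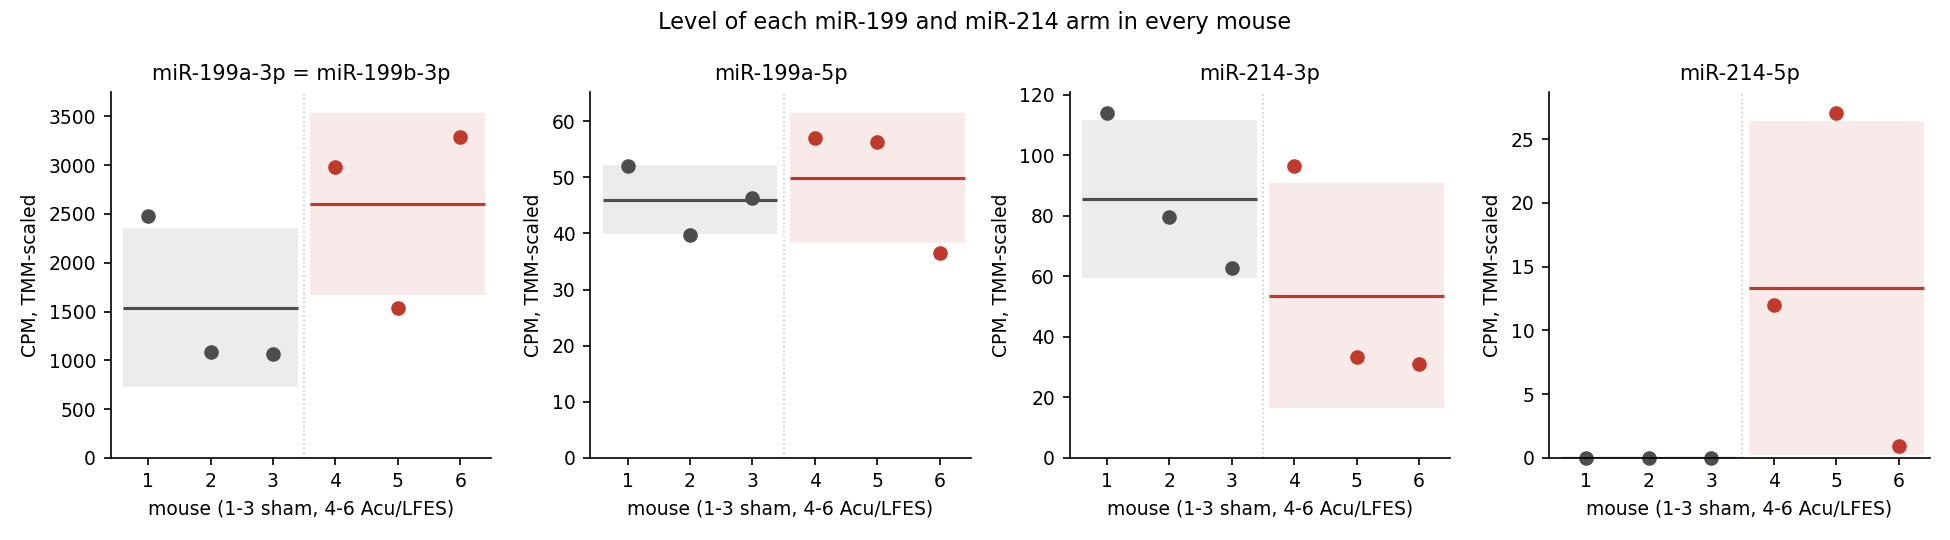
CPM (TMM-scaled) of the 4 distinct miR-199 and miR-214 rows in each mouse, with sham mice in grey and Acu/LFES mice in red. Points are single mice, lines are group means and bands are 1 SD (n = 3), and each panel has its own axis from 0. miR-199a-3p was between 1060 and 3292 CPM, and miR-214-5p was at 0 in the 3 sham mice.

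miR-199a-5p, the partner arm, was rare and even. It had 36, 17 and 14 counts in sham animals and 95, 27 and 40 counts in Acu/LFES animals. This gave 52.0, 39.7 and 46.4 CPM in sham animals and 57.0, 56.3 and 36.6 CPM in Acu/LFES animals. Acu/LFES mice 4 and 5 were the highest and Acu/LFES mouse 6 was the lowest of all mice. The highest mouse was 1.56 times the lowest for miR-199a-5p, against 3.11 times for miR-199a-3p. Group means were 46.0 ± 6.14 and 49.9 ± 11.6 CPM (n = 3 per group, SD), and the log2 fold change was 0.11 ± 0.68 (standard error, adjusted p = 0.973 in edgeR's quasi-likelihood test).

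miR-214-3p, cut from the same transcript as miR-199a-2, had 79, 34 and 19 counts in sham animals and 161, 16 and 34 counts in Acu/LFES animals. These counts were 114, 79.5 and 62.9 CPM in sham animals and 96.6, 33.3 and 31.1 CPM in Acu/LFES animals. Acu/LFES mice 5 and 6 were below all sham mice, whereas Acu/LFES mouse 4 lay within the sham range. Group means were 85.5 ± 26.1 and 53.7 ± 37.2 CPM (n = 3 per group, SD). The log2 fold change was -0.66 with a standard error of 0.68 (adjusted p = 0.799 in edgeR's quasi-likelihood test). Without Acu/LFES mouse 4 it was -1.42, again with no call (adjusted p = 0.774 in the same edgeR test).

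miR-214-5p, the other arm of that hairpin, was at low counts. It had 0 counts in each of the 3 sham mice and 20, 13 and 1 counts in Acu/LFES mice 4, 5 and 6, or 12.0, 27.1 and 0.914 CPM. Acu/LFES mouse 6, with 1 count, could not be told apart from the sham mice. A miRNA with 3 counts, the number taken as the least that shows it, would have stood between 4.33 and 9.93 CPM in the sham libraries, so a level under that was not detectable there. Against the highest of these floors, the mean of 13.3 ± 13.1 CPM in Acu/LFES animals (SD, n = 3) was at least 1.34-fold higher. This bound rested on Acu/LFES mouse 5, without which the mean was 0.650 times the floor and gave no bound. The row did not pass edgeR's filter on low counts. With no filter, its fitted log2 fold change was 6.29 with a standard error of 3.01 (unadjusted p = 0.0368, adjusted p = 0.577 in edgeR's quasi-likelihood test), a value that depends on the prior count because the sham counts are 0. Intervals and floors cover counting error only, since PCR reads are not independent molecules.

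Of the 4 distinct rows, 3 were tested, and 0 had an adjusted p under 0.05, as was the case for 0% of the 259 miRNAs tested. At an unadjusted p under 0.05 in the same edgeR test, 0 of the 3 tested rows were higher and 0 were lower, where 5.79% of all tested miRNAs were higher and 3.09% were lower (15 and 8 miRNAs). That split depended on the scaling. With total counts in place of TMM factors, 23 miRNAs were higher and 0 were lower, miR-199a-3p being among the former (unadjusted p = 0.0452, adjusted p = 0.480 in the edgeR test), and the median of all log2 fold changes was then 0.71. With TMM factors, the unadjusted edgeR p of miR-199a-3p was also under 0.05 with no filter (0.0137, adjusted 0.577). The same held without sham mouse 1 (0.00877, adjusted 0.220) and without Acu/LFES mouse 5 (0.0313, adjusted 0.368). In the other settings run it was above 0.05. When DESeq2 was used instead, with its own size factors, 9 miRNAs had an adjusted p under 0.05, none of them a member. In 0 of the 3 tested rows did the CPM of the groups separate, while every Acu/LFES mouse was above every sham mouse in 8.88% of all tested miRNAs and below in 8.11%. The 3 rows lay on both sides of the median log2 fold change over all tested miRNAs, which was 0.05.

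**Figure D2:**
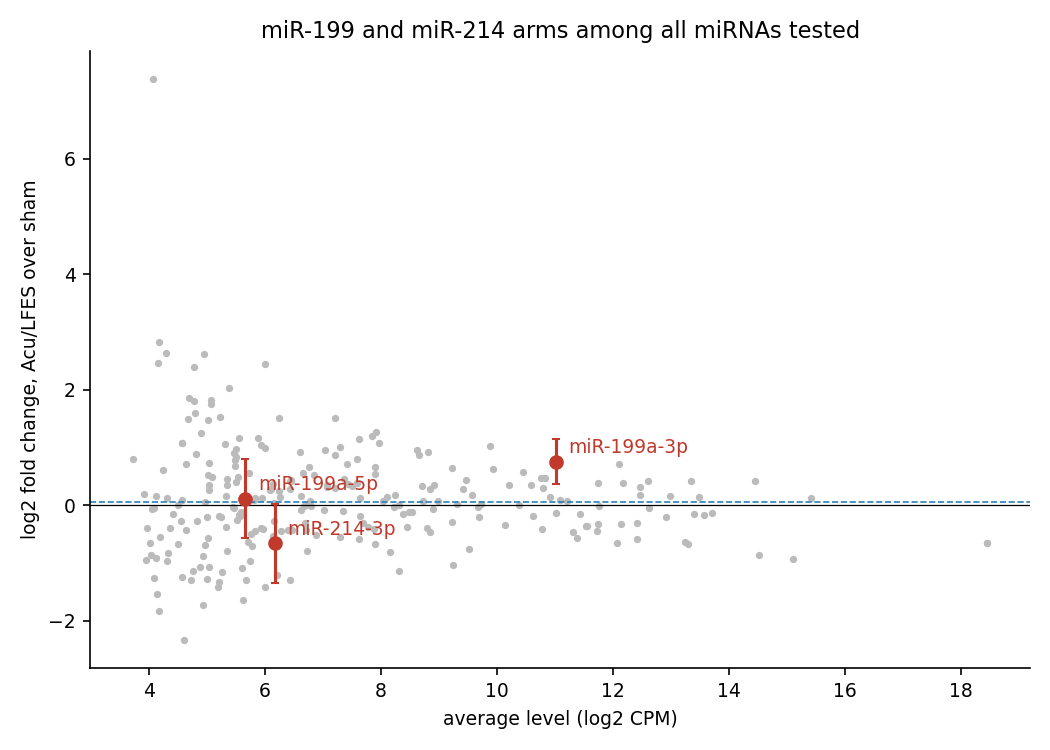
Log2 fold change of Acu/LFES over sham against the average level (log2 CPM) for the 259 miRNAs tested, with the 3 tested miR-199 and miR-214 rows in red and bars of 1 standard error. The dashed line is the median of all miRNAs at 0.05. miR-199a-3p lay above it at 0.75, miR-199a-5p near it at 0.11 and miR-214-3p below it at -0.66.

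Ratios between members were taken within each library, because they need no scaling for depth. They were compared by 2-sided exact permutation tests on the log2 ratio with a pseudocount of 0.5 added to each count. The permutation p was Benjamini-Hochberg adjusted over the 4 ratios computed, and with 3 mice against 3 it cannot go below 0.1. These 4 include the ratios of miR-214-5p and miR-199b-5p, whose sham values are set by the pseudocount and whose tests are not given. The adjusted p of the other ratios therefore depends in part on them.

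miR-214-3p was scarcer relative to miR-199a-3p in every Acu/LFES mouse than in any sham mouse. In how many other pairs of miRNAs the groups separated was not counted, so this split has no background share beside it. Its share of the sum of both counts was 4.40%, 6.84% and 5.60% in sham animals and 3.14%, 2.12% and 0.936% in Acu/LFES animals. The 95% Wilson intervals were 3.54% to 5.45% in sham mouse 1 and 3.62% to 8.59% in sham mouse 3. Both overlapped in counting error with that of Acu/LFES mouse 4, at 2.70% to 3.65%. The interval of Acu/LFES mouse 6, at 0.670% to 1.30%, lay below all others, but only narrowly below that of mouse 5, at 1.31% to 3.42%. The mean log2 ratio was -4.07 ± 0.34 in sham animals and -5.71 ± 0.90 in Acu/LFES animals (n = 3 per group, SD). The difference was -1.64, or 0.321-fold (exact permutation p = 0.1, the smallest possible, and adjusted p = 0.2 over the 4 ratios). Without Acu/LFES mouse 6 the difference was -1.14. The direction held in each of the fits without one mouse.

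The share of the 5p arm in the miR-199a pair was 2.05%, 3.54% and 4.19% in sham animals and 1.88%, 3.53% and 1.10% in Acu/LFES animals. Acu/LFES mouse 5 lay within the sham range and the groups overlapped. The mean log2 ratio of miR-199a-5p to miR-199a-3p was -4.92 ± 0.57 in sham animals and -5.64 ± 0.87 in Acu/LFES animals (n = 3 per group, SD, exact permutation p = 0.2, adjusted p = 0.267). The 3p arm was the larger by far in all 6 libraries. Mir199b can add to the 3p count, and whether its reads also entered the miR-199a-5p count depends on the mismatches allowed.

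Within the miR-214 pair, the 5p arm had more than 3 counts in 2 of the 3 Acu/LFES mice and in 0 of the sham mice. How many of all rows had this pattern was not counted. The Acu/LFES libraries of mice 4, 5 and 6 detected 666, 489 and 533 miRNAs, and the sham libraries of mice 1, 2 and 3 detected 453, 388 and 338. The 5p share was 0 of 79, 0 of 34 and 0 of 19 counts in sham animals, where 3 counts would have been 3.80%, 8.82% and 15.8% and the upper limits of the 95% Wilson intervals were 4.64%, 10.2% and 16.8%. It was 11.0% of 181 counts in Acu/LFES mouse 4 (95% Wilson interval 7.27% to 16.5%), 44.8% of 29 counts in mouse 5 (28.4% to 62.5%) and 2.86% of 35 counts in mouse 6 (0.506% to 14.5%). The interval of mouse 5 lay above those of all sham mice, that of mouse 4 lay above sham mouse 1 and overlapped sham mice 2 and 3, and that of mouse 6 overlapped all of them. The sham values of the log2 ratio of these arms are set by the pseudocount, since their counts are 0, so no test of it is given. Its difference was 3.64 at a pseudocount of 0.5 and 2.81 at 1.

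**Figure D3:**
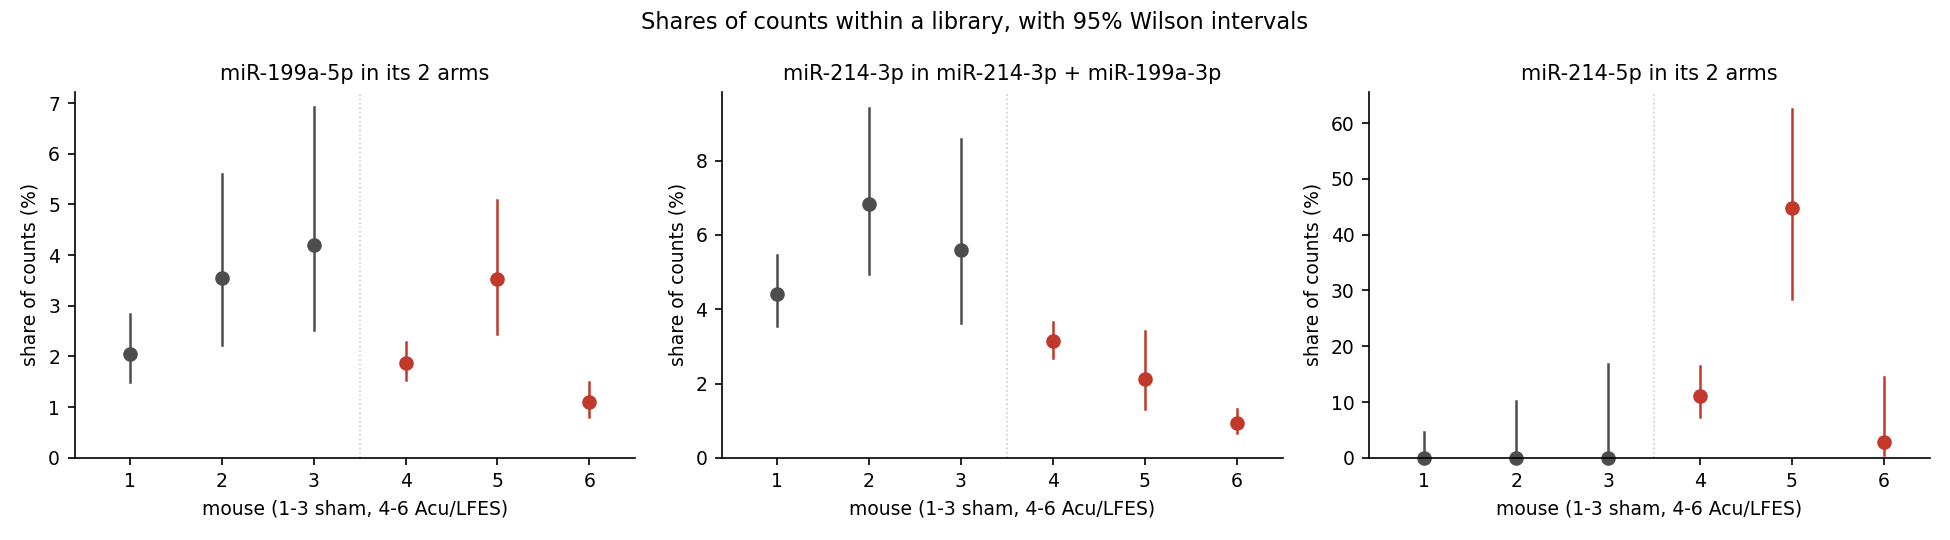
Percent of counts within a library taken by miR-199a-5p among both miR-199a arms, by miR-214-3p among miR-214-3p plus miR-199a-3p, and by miR-214-5p among both miR-214 arms, in each mouse. Bars are 95% Wilson intervals for counting error, with sham mice in grey and Acu/LFES mice in red. In the middle panel the Acu/LFES mice lie at 3.14%, 2.12% and 0.936%, all under the lowest sham mouse at 4.40%.

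miR-199b-5p, a further row of the table named after the Mir199b gene, was nearly absent. It had 0 counts in sham animals and 1, 0 and 10 counts in Acu/LFES mice 4, 5 and 6. Set against miR-199a-5p it made up 20% of 50 counts in Acu/LFES mouse 6 (95% Wilson interval 11.2% to 33.0%) and 1.04% of 96 counts in mouse 4. In the other mice 0 of 14 to 0 of 36 counts were found, where 3 counts would have been 8.33% to 21.4%. The log2 ratio of miR-199b-5p to miR-199a-5p overlapped between the groups, with sham values again set by the pseudocount and no test given, and without Acu/LFES mouse 6 its difference turned from 0.82 to -0.49.

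Together the 4 distinct rows had 2646, 1202 and 1169 CPM in sham animals and 3144, 1654 and 3360 CPM in Acu/LFES animals. miR-199a-3p made up 90.1% to 98.0% of this sum. The sum was thus a measure of the miR-199 3p arm, which sham mouse 1 and Acu/LFES mice 4 and 6 carried at the highest levels. It overlapped between the groups, as sham mouse 1 exceeded Acu/LFES mouse 5.

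The level of miR-199a-3p was highest in the mice with a low share of counts taken by miR-486a-5p and miR-486b-5p, rows with identical counts listed here among the red-cell markers. Summed over both rows as deposited, that share was 61.7%, 74.0% and 71.2% in sham mice 1, 2 and 3 and 61.9%, 73.5% and 29.2% in Acu/LFES mice 4, 5 and 6. Counting the identical rows once gave 44.6%, 58.7% and 55.2% in sham animals, then 44.8%, 58.1% and 17.1% in Acu/LFES animals. On either scale the 3 mice with the lowest shares, mice 1, 4 and 6, were those with the highest miR-199a-3p. Between mice of nearly equal miR-486 share, miR-199a-3p was 2480 CPM in sham mouse 1 and 2979 CPM in Acu/LFES mouse 4, and it was 1082 CPM in sham mouse 2 and 1538 CPM in Acu/LFES mouse 5. Sham mouse 3 had 1060 CPM, and Acu/LFES mouse 6, with 3292 CPM, had no sham mouse near its share. These are single mice, the gaps are smaller than the SD of either group (814 and 936 CPM), and they were not tested. As a percent of counts outside miR-486, it was 0.718%, 0.270% and 0.283% in sham animals and 0.866%, 0.441% and 0.982% in Acu/LFES animals. With library sizes taken from these reduced totals, the log2 fold change was 0.85 (adjusted p = 0.507 in edgeR's quasi-likelihood test). Other red-cell markers did not follow the miR-486 share. miR-451a was 692, 1302 and 1142 CPM in sham animals and 1907, 1115 and 943 CPM in Acu/LFES animals. miR-451a, miR-144-5p and miR-16-5p were each highest in Acu/LFES mouse 4. The part of red-cell RNA in the level of miR-199a-3p was not tested.

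The 5 miRNAs most like miR-199a-3p were miR-203-3p, miR-146b-5p, miR-205-5p, miR-23a-3p and miR-27b-3p. Likeness was measured as the root mean square distance between log2 CPM profiles, each centred on its own mean, over the 6 mice and among 255 tested miRNAs other than the members. The distances were 0.17, 0.21, 0.30, 0.32 and 0.36 on the log2 scale, where the median miRNA was at 0.97. miR-203-3p and miR-205-5p are known from skin and other stratified epithelia, and miR-146b-5p is induced in inflammatory signalling. miR-203-3p had 467, 259 and 195 CPM in sham animals and 685, 290 and 773 CPM in Acu/LFES animals. miR-205-5p had 2677, 799 and 887 CPM in sham animals and 1662, 1381 and 2986 CPM in Acu/LFES animals. Both were highest in mice 1, 4 and 6, as was miR-199a-3p, which follows from their choice by likeness to it. For miR-205-5p the gap between mouse 4, at 1662 CPM, and mouse 5, at 1381 CPM, was small. Whether RNA of these tissues bears on the level of miR-199a-3p was not tested.

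**Figure D4:**
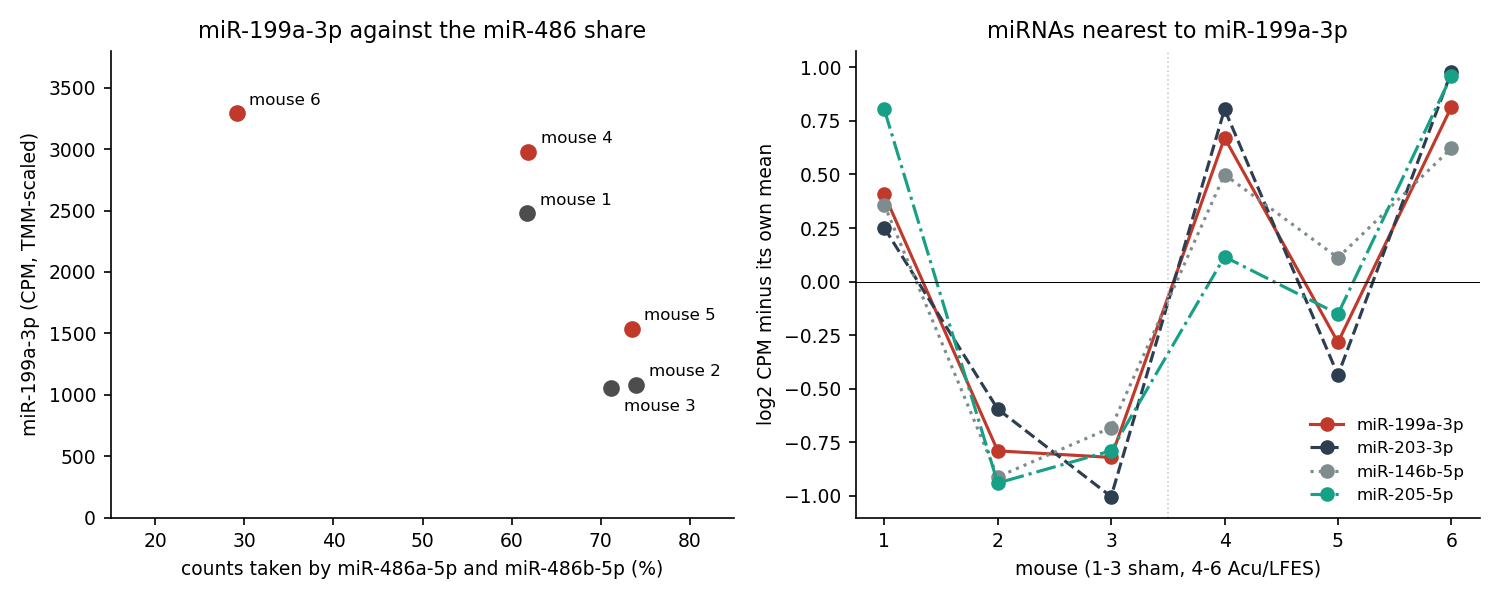
Left, miR-199a-3p (CPM, TMM-scaled) against the percent of counts taken by miR-486a-5p and miR-486b-5p, 1 point per mouse, with sham mice in grey and Acu/LFES mice in red. Right, log2 CPM minus its own mean over the 6 mice for miR-199a-3p and its 3 nearest miRNAs, where the lines join the points of a miRNA and imply no order of mice. Mice 1, 4 and 6 had the lowest miR-486 shares and the highest miR-199a-3p, at 2480, 2979 and 3292 CPM.

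The members were not each other's nearest rows. miR-199a-5p was at a distance of 0.69 from miR-199a-3p, and 57 other miRNAs were nearer, among them miR-203-3p and miR-205-5p. miR-214-3p was at 0.99, about the distance of the median miRNA. The rows nearest to miR-214-3p were miR-429-3p at 0.40, miR-26b-5p at 0.45, let-7f-5p at 0.48, miR-215-5p at 0.49 and miR-200c-3p at 0.49. miR-429-3p and miR-200c-3p are epithelial miRNAs of the miR-200 family. The rows nearest to miR-199a-5p were miR-10b-5p, miR-181b-5p, miR-98-5p, miR-128-3p and miR-29a-3p, at 0.19 to 0.23, all of which varied little between mice. The lowest mouse had 16 counts for miR-214-3p and 14 for miR-199a-5p, and the part of counting error in these distances was not tested.

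To place the members among other miRNAs of connective tissue, a list of 14 stromal miRNAs was examined, of which 13 had a count and 11 were tested. The list held miR-143 and miR-145a, which mark smooth muscle and other mesenchyme, miR-152-3p, miR-10b-5p, miR-100-5p, miR-99a-5p, miR-125b-5p, miR-21a-5p, miR-29a-3p, miR-22-3p, miR-31-5p and miR-27b-3p, several of which other tissues also express. By edgeR's adjusted p none of them passed, while 3 of the 11 were higher and 0 lower by the unadjusted p, against 5.79% and 3.09% of all miRNAs. The median log2 fold change of the 11 was 0.42, against 0.05 over all tested miRNAs. Every Acu/LFES mouse was above every sham mouse for 4 of them, namely miR-143-3p, miR-22-3p, miR-27b-3p and miR-31-5p, against 8.88% of all miRNAs, and below for 0. For miR-31-5p the margin was narrow, at 26.0 CPM in sham mouse 1 and 26.5 CPM in Acu/LFES mouse 6, and its sham counts were 18, 0 and 1. The list was chosen with earlier results of these data known.

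miR-143-3p was 605, 830 and 407 CPM in sham animals and 1003, 1173 and 1595 CPM in Acu/LFES animals. Its log2 fold change was 1.03 with a standard error of 0.31 (adjusted p = 0.269 in edgeR's quasi-likelihood test, and 0.0375 in the Wald test of DESeq2). miR-22-3p was 3356, 3249 and 3414 CPM in sham animals and 4064, 5355 and 7020 CPM in Acu/LFES animals, and its log2 fold change was 0.71 ± 0.25 (standard error, adjusted p = 0.429 in the edgeR test). In both of these miRNAs the groups separated, in contrast to miR-199a-3p, though their fold changes were of the same order as its 0.75. The log2 fold change was also positive for miR-31-5p (1.80), miR-152-3p (1.07), miR-27b-3p (0.63), miR-21a-5p (0.42), miR-125b-5p (0.33) and miR-29a-3p (0.28). The remaining tested rows of the list were flat or lower. miR-145a-5p was 7.22, 70.1 and 49.7 CPM in sham animals and 39.0, 33.3 and 50.3 CPM in Acu/LFES animals, with a log2 fold change of -0.03. The log2 fold change was 0.03 for miR-10b-5p and -0.92 for miR-99a-5p. Of the 11 tested, 9 had a positive log2 fold change and 2 a negative one. miR-152-3p, an intronic miRNA of Copz2, was 269, 138 and 66.2 CPM in sham animals and 304, 267 and 433 CPM in Acu/LFES animals, with sham mouse 1 again the highest of its group and overlapping the other group by a narrow margin. The difference between the fold changes of these miRNAs and of miR-199a-3p was not tested.

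**Figure D5:**
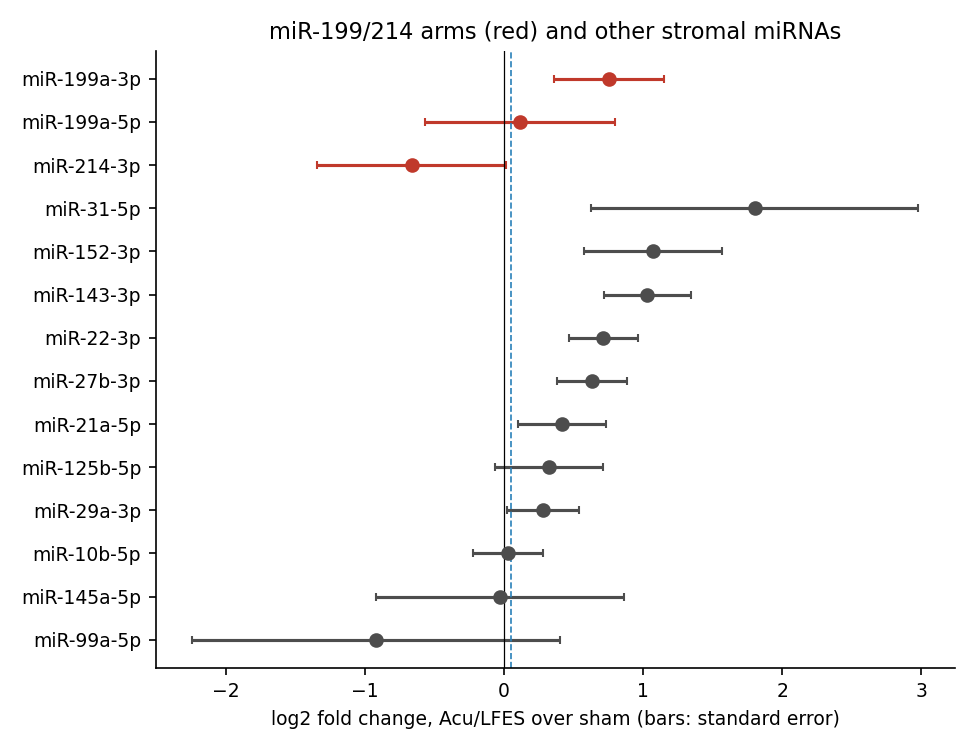
Log2 fold change of Acu/LFES over sham with bars of 1 standard error for the 3 tested miR-199 and miR-214 rows (red) and the 11 tested stromal miRNAs (grey). The dashed line is the median of all tested miRNAs at 0.05. The stromal miRNAs had a median of 0.42, and miR-199a-3p at 0.75 lay within their range while miR-214-3p at -0.66 was below all but miR-99a-5p.

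Markers of other sources were also present in the serum exosomes, so the counts of the members cannot be assigned to fibroblasts. Summed over each list with identical rows once, 6 red-cell miRNAs took 78328 to 579353 CPM, 6 skeletal and cardiac muscle miRNAs 7499 to 12478 CPM, 6 white-cell and platelet miRNAs 5425 to 8039 CPM, 2 endothelial miRNAs 1490 to 2595 CPM and 2 liver miRNAs 1697 to 20871 CPM. The mesenchymal markers, made up of the members with miR-143-3p, miR-145a-5p and miR-152-3p, summed to 1692 to 5439 CPM. miR-199a-3p was the largest row of this sum in each mouse, so the sum is not independent of the members. It overlapped between the groups, at 3528 CPM in sham mouse 1 and 3127 CPM in Acu/LFES mouse 5. Of the markers, miR-208b-3p alone had 0 counts in every mouse. With identical rows taken once, the median log2 fold change was 0.25 for red-cell, -0.39 for white-cell and platelet, -0.27 for endothelial and -0.04 for muscle miRNAs, -0.67 for the liver miRNA tested and 0.43 for the 6 distinct mesenchymal rows tested, 3 of which are the members themselves, with 0 markers called after adjustment in the edgeR test. The largest library, that of Acu/LFES mouse 4, had the most detected miRNAs, at 666, and that of sham mouse 3 the fewest, at 338.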

How the data were processed

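Small RNA from serum exosomes was sequenced for 6 mice, 3 in each group, and the sample titles gave the group and mouse number. The authors counted reads on mature miRNAs, and the deposited values are these raw counts without normalization. The submitters' processing notes name bcl2fastq, cutadapt 1.6 and DESeq2 1.26.0, and the aligner, the counter, the miRNA annotation and the mismatches allowed are not given in the sources used here. miRNAs of identical sequence were listed with identical counts, so a read can enter a total more than once. Library totals ranged from 391708 to 1504137 counts.

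Groups were compared with edgeR 4.0.16 (R 4.3.3), using TMM factors and quasi-likelihood tests over the 259 of 954 counted miRNAs that passed its default filter, with Benjamini-Hochberg adjustment and a threshold of 0.05. The standard errors given for edgeR fold changes were derived, as the absolute log2 fold change divided by the square root of the quasi-likelihood F statistic. The script was tested on simulated data. Ratios were compared by exact permutation with scipy 1.17.1. Alternatives were DESeq2 1.42.0, total counts, upper-quartile factors, totals without miR-486, a filter of at least 10 counts in each library, no filter, identical rows collapsed, a pseudocount of 1 for ratios, and each mouse left out. No pair of libraries agreed within sampling noise by a chi-square test.

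The members, the stromal list, the marker lists and the tests were chosen with earlier results of these data known. The miRNAs named are the members, miR-199b-5p, miRNAs sharing a member's seed, the listed stromal and marker miRNAs, and the 5 miRNAs nearest to each tested member. The rule had asked for these neighbours for miR-199a-3p and miR-214-3p, and those of miR-199a-5p were added after values were seen. Sequences are from RefSeq on GRCm38.p6 and gene positions from GENCODE M21, and the build of the deposited counts is not given in the sources used here. Figures were drawn with matplotlib 3.10.9.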

Additional observations from a re-analysis of the deposited data

How the results depend on the processing

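No paired analysis was possible because the mouse numbers of the groups are not shared. The log2 fold changes of miR-199a-3p and miR-214-3p kept their direction, with no adjusted p under 0.05, under all alternatives that were run. That of miR-199a-3p went from 0.69 with upper-quartile factors to 1.42 with total counts, where the median of all miRNAs was itself 0.71, and from 0.56 to 1.32 when one mouse was left out. That of miR-214-3p went from -0.70 to -0.19, and from -1.42 to -0.34 when one mouse was left out. miR-199a-5p went from 0.06 to 0.62, and from -0.0050 to 0.33 when one mouse was left out, turning negative without Acu/LFES mouse 4. The number of miRNAs at an adjusted p under 0.05 was 9 with DESeq2 and 0 otherwise, and the cause was not tested. At an unadjusted p under 0.05 edgeR gave 23 miRNAs, 53 with no filter and 48 without sham mouse 1, while DESeq2 gave 29. DESeq2 gave no adjusted p for miR-199a-5p and miR-214-3p. When one mouse was left out, the difference in log2 ratio went from -2.02 to -1.14 for miR-214-3p to miR-199a-3p, from -1.17 to -0.31 for miR-199a-5p to miR-199a-3p, from 2.48 to 4.60 for miR-214-5p to miR-214-3p and from -0.49 to 1.53 for miR-199b-5p to miR-199a-5p. For the ratios of miR-214-5p and miR-199b-5p the sham values are set by the pseudocount, so their ranges do not show stability. With no filter, miR-214-5p had a fitted log2 fold change of 6.29 (adjusted p = 0.577 in edgeR), and its other settings were not run, since it did not pass the filter with all mice. Its mean over the highest sham floor, an alternative chosen after seeing the data, went from 0.650 without Acu/LFES mouse 5 to 1.97 without mouse 6. The low counts of miR-214-5p and miR-199b-5p limit what can be said of either.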
